A study of Mus musculus with 12 samples.

Results

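The genes described here are the core machinery of the cell cycle and of DNA replication, 51 genes chosen by name for their roles in loading and firing replication origins, supplying nucleotides, driving entry into mitosis and running the spindle. Of these, 50 had at least 1 probe set assigned to their symbol alone on the Affymetrix MOE430A array, 99 of its 22690 probe sets, among 12394 genes with such a probe set. Ccnb1 was not analysed here. Each gene was read from its probe set with the highest mean over all arrays. In 28 genes that mean exceeded 20 intensity units, and these 28 were among the 5649 genes tested. The other 22 genes were at or under 20: Cdc6, Cdc45, Gins1, Pola1, Lig1, Tyms, Dut, Ccne1, Ccne2, Bub1, Bub1b, Chek1, Aurka, Aurkb, Plk1, Cenpa, Cenpe, Kif20a, Kif2c, Nusap1, Tpx2 and Hmmr. Since a gene could pass that limit through the groups in which it was high, the counts below describe the genes that passed and not the whole set.

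Total RNA from the full-length small intestine of male mice, 14 weeks old, was hybridised from 4 groups of 3 animals: PPARα-null mice (129S4/SvJae) fasted for 24 hours, PPARα-null mice with free access to feed, wild-type mice (129S1/SvImJ) fasted for 24 hours and wild-type mice with free access to feed. The sources differ on the feed: the deposited design names AIN93M diet for all groups, whereas the study's methods name a standard laboratory chow. PPARα is a nuclear receptor activated by fatty acids, and the null line lacks it in all tissues. The 2 genotypes are different 129 substrains, so that loss of PPARα and substrain cannot be told apart, and the labels of the fed arrays give the strain only as 129Sv. The free-text descriptions of the 3 wild-type fasted arrays call them knockout, whereas their titles and strain fields call them wild type, which was followed. Ppara read 13.2, 11.7 and 11.0 units in the PPARα-null fasted arrays and 6.84, 7.50 and 7.35 in the PPARα-null fed arrays, against 58.7, 48.1 and 30.8 in the arrays labelled wild-type fasted and 19.9, 34.0 and 35.9 in the wild-type fed arrays. Every wild-type array was above every PPARα-null array. The sources used here do not say whether this probe set lies in the disrupted part of the gene.

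The small intestine renews its epithelium from stem and progenitor cells in the crypts, where nearly all epithelial division takes place, while the enterocytes of the villus no longer divide. In G1, Cdt1 and Cdc6 load the Mcm2 to Mcm7 helicase onto origins. In S phase the helicase unwinds the DNA, Pcna clamps the polymerases to it and ribonucleotide reductase (Rrm1 and Rrm2) makes the deoxynucleotides. Cyclins A and B with Cdk1 then drive mitosis, which the spindle checkpoint (Bub and Mad proteins) holds back until the anaphase-promoting complex, through Cdc20 and Ube2c, ends it. Mki67 and Top2a are made in dividing cells and are common markers of proliferation. In whole intestine fewer dividing cells and less of an RNA per dividing cell cannot be told apart, and lymphoid cells of the gut wall divide as well.

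Intensities of the fasted arrays were lower across the board: the median over the tested probe sets was 108 to 113 units in the 6 fasted arrays and 133 to 141 in the 6 fed arrays. Fed and fasted arrays were deposited apart, so that a general effect of fasting and a separate normalization cannot be told apart. A constant of −0.30 on the log2 scale, the median fasting difference of the tested probe sets over both genotypes, was therefore subtracted from the fasting contrasts, and a log2 change upon fasting is relative to it unless called as deposited. Printed intensities are those deposited and include the shift. Replicates within a group correlated at 0.975 to 0.994 over the tested probe sets. The summed intensity of 15 exocrine pancreas genes was 37480 and 38610 units in PPARα-null fasted replicates 1 and 3, 10300 in replicate 2 and 11270 to 11680 in PPARα-null fed arrays, against 21240 to 31780 in wild-type fasted arrays and 11350 to 13620 in wild-type fed arrays. The call of a change required a fold over 1.3 with an unadjusted p under 0.01, and adjusted p values are Benjamini-Hochberg values of limma over all 9053 probe sets tested. The number of arrays limits the precision.

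Promoters of cell cycle genes are known for a pair of arrangements. Genes of S phase often carry binding sites of E2F factors, whereas genes of G2 and mitosis often carry a cell cycle homology region (CHR) together with CCAAT boxes. The windows run from 250 bases before to 50 bases after a transcription start listed by RefSeq (GRCm38.p6) and are shown for the 4 genes that fell most upon fasting in PPARα-null mice and for Cdc20, a mitotic gene that was called in both genotypes. They lie at chr7:135716330-135716629 on the minus strand (Mki67), chr11:99024140-99024439 on the minus strand (Top2a), chr4:118437294-118437593 on the minus strand (Cdc20), chr12:24708004-24708303 on the plus strand (Rrm2) and chr8:75109259-75109558 on the plus strand (Mcm5). Capitals mark the letters TTTGAA (CHR), CCAAT and TTTNNCGC (E2F), searched on both strands, so that capitals on the other strand read as the reverse complement.
Mki67: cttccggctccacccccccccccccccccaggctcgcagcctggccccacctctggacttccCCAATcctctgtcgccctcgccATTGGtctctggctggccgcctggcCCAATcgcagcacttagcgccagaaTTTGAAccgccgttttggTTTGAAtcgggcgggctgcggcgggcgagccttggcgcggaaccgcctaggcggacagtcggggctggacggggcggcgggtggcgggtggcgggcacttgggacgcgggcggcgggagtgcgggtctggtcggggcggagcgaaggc
Top2a: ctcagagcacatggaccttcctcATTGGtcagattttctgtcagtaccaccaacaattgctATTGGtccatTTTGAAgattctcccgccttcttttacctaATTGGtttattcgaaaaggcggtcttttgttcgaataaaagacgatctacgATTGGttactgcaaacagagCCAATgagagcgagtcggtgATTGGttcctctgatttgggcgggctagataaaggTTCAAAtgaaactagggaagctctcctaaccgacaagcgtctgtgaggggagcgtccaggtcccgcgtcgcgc
Cdc20: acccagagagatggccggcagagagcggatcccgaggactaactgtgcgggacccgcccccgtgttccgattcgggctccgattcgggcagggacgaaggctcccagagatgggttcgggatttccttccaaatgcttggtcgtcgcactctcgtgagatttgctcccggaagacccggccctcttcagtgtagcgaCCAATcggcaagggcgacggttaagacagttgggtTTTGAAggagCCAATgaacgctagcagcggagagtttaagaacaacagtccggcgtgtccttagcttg
Rrm2: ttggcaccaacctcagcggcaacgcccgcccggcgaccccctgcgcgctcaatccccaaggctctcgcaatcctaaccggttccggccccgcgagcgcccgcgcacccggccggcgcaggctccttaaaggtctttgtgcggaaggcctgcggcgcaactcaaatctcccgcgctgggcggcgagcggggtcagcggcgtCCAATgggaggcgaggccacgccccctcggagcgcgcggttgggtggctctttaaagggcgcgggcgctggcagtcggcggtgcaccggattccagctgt
Mcm5: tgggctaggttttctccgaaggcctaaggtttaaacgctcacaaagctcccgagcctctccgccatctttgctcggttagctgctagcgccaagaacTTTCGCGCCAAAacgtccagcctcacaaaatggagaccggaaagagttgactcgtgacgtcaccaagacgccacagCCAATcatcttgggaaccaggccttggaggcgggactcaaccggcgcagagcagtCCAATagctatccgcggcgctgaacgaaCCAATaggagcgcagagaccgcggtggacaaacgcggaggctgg
Mki67 held 2 CHR and 3 CCAAT matches, Top2a 2 and 6, and Cdc20 1 and 2, with no E2F match in these 3 windows. Mcm5 held 2 E2F matches, which share 4 bases, and 3 CCAAT matches. Rrm2 held 1 CCAAT match and no CHR or E2F match, and so shows neither arrangement. RefSeq windows were found for 43 of the 51 genes (49 windows). The CHR letters were in 46.9% of these windows and in 17.9% of all 32851 promoter windows, CCAAT in 69.4% and 37.4%, and the E2F letters in 26.5% and 5.17%. CHR and CCAAT together stood in 67.9% of the 28 windows of cyclin, checkpoint and mitosis genes, in 9.52% of the 21 windows of replication and nucleotide genes and in 6.95% of all windows. The E2F letters stood in 14.3% and 42.9% of the windows of these classes, and in 5.17% of all. A match is a description of the letters and no evidence of binding.

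Upon fasting of PPARα-null mice, 15 of the 28 genes fell and none rose. All genes tested fell in 25.1% and rose in 18.5% of cases in this contrast, against 53.6% and 0% of the 28. The median change of the 28 was −0.53, that of all genes tested −0.04 on the log2 scale, and 25 of the 28 lay below 0 against 53.7% of all genes. The falls took in the proliferation markers, both subunits of ribonucleotide reductase, 4 of the 6 Mcm subunits, Pcna, cyclin A2 and 3 of the 4 checkpoint and APC/C genes.

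Mki67, the antigen recognised by the Ki-67 antibody, read 111, 137 and 104.5 units in PPARα-null fasted arrays, against 331, 321 and 248 in PPARα-null fed arrays. It fell by 1.05 on the log2 scale (standard error 0.15, adjusted p = 5.93e-05), a 2.08-fold change. Every fasted array was below every fed array by a wide margin.

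Top2a, the topoisomerase that untangles sister chromatids, read 115, 113 and 95.3 units in PPARα-null fasted arrays, against 292, 292 and 271 in PPARα-null fed arrays. It fell by 1.11 (standard error 0.15, adjusted p = 4.25e-05). The groups were far apart and the spread within each was small.

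Rrm2, the subunit of ribonucleotide reductase that is made in S phase and degraded afterwards, had the largest change of the 28. It read 39.5, 35.2 and 33.7 units in PPARα-null fasted arrays, against 131, 141 and 160.3 in PPARα-null fed arrays, and fell by 1.70 (standard error 0.19, adjusted p = 1.24e-05). Its second tested probe set fell by 0.99. Rrm1, the large subunit, read 32.4, 31.99 and 24.8 units in PPARα-null fasted arrays, against 60.3, 58.9 and 64.2 in PPARα-null fed arrays, and fell by 0.75 (adjusted p = 0.000231). The second probe set of Rrm1, at −0.34, was not called.

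Among the helicase subunits Mcm5 read 14.4, 12.1 and 8.38 units in PPARα-null fasted arrays, against 31.9, 28.9 and 27.2 in PPARα-null fed arrays, and fell by 1.07 (standard error 0.16, adjusted p = 0.000126). Mcm4 read 20.65, 21.4 and 19.6 units in PPARα-null fasted arrays, against 48.0, 44.3 and 44.7 in PPARα-null fed arrays, and fell by 0.85. Mcm3 fell by 0.72 and Mcm7 by 0.53. Mcm2 (−0.15, adjusted p = 0.472) and Mcm6 (−0.18, adjusted p = 0.237) were not called, and whether subunits differed from each other was not tested. The second probe set of Mcm6 fell by 0.65, however, and the other 2 probe sets of Mcm7 gave −0.39 and −0.18 and were not called.

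Pcna, the sliding clamp, read 817, 846 and 785 units in PPARα-null fasted arrays, against 1509, 1485 and 1341 in PPARα-null fed arrays, and fell by 0.53 (standard error 0.09, adjusted p = 0.000230). The origin licensing factor Cdt1 gave 0.21, the primase subunit Prim1 0.09 and the flap endonuclease Fen1 −0.08, none of them called, although a second probe set of Fen1 fell by 0.63. Ccna2, cyclin A2, read 18.8, 19.7 and 19.0 units in PPARα-null fasted arrays, against 41.2, 37.55 and 42.3 in PPARα-null fed arrays, and fell by 0.78 (adjusted p = 0.00539). Ccnb2, a mitotic cyclin (−0.25), and its kinase Cdk1 (−0.36, adjusted p = 0.0543) were not called. Cdk1 read 80.45, 90.9 and 80.9 units in PPARα-null fasted arrays, against 138, 137 and 123 in PPARα-null fed arrays, so that its groups were apart as deposited.

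Of the mitotic genes, Cdc20, the activator of the anaphase-promoting complex, fell by 0.71, its ubiquitin-conjugating enzyme Ube2c by 0.54 (not called without PPARα-null fasted replicate 1 or 3 or PPARα-null fed replicate 1, −0.63 to −0.49) and the checkpoint protein Bub3 by 0.56. The kinesin Kif11, which pushes the spindle poles apart, fell by 0.72 and the tubulin-binding protein Stmn1 by 0.63. The checkpoint protein Mad2l1 (−0.21), the chromosomal passenger Birc5 (−0.44), Kif22 (−0.06), Kif23 (0.28), Prc1 (−0.27) and Racgap1 (−0.24), which act on chromosomes, the midzone and cytokinesis, were not called. The changes therefore ran from −1.70 to 0.28 over the 28 genes.

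**Figure D1:**
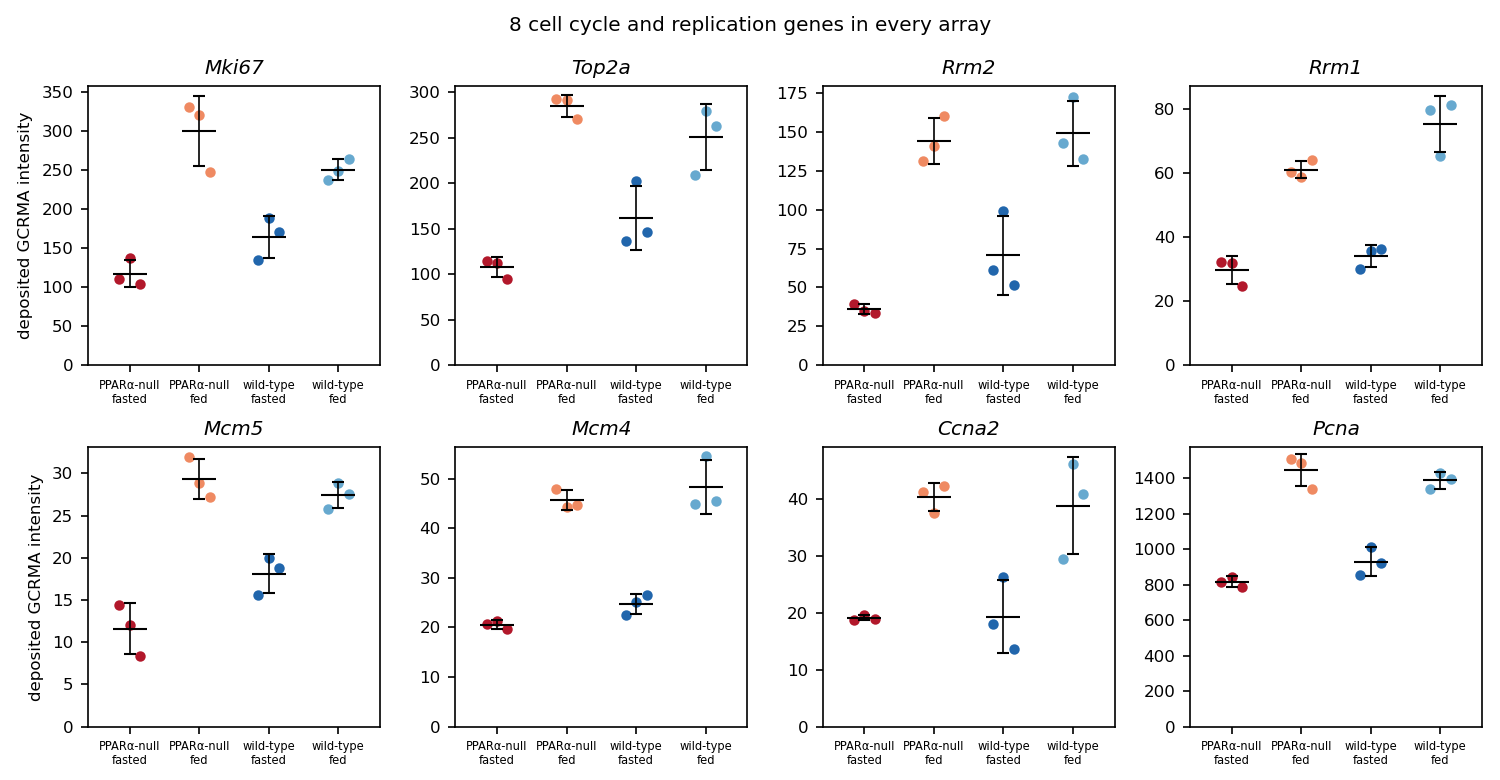
Deposited GCRMA intensity (vertical axis, starting at 0) of 8 genes in every array, by group; points are arrays, and the bar and whiskers give the mean and SD of 3 arrays. In all 8 genes the PPARα-null fasted arrays lie below the PPARα-null fed arrays, and the wild-type fasted arrays below the wild-type fed arrays.

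In wild-type mice fasting called fewer of these genes: 7 of the 28 fell and 1 rose. All genes tested fell in 8.04% and rose in 10.1% of cases, against 25% and 3.57% of the 28. The median change was −0.31, against 0.02 over all genes tested, and 23 of the 28 lay below 0 against 47.3% of all genes. The falls were Rrm1 (−0.85), Rrm2 (−0.83), Ccna2 (−0.73), Mcm4 (−0.67), Ube2c (−0.62), Racgap1 (−0.55), a regulator of cytokinesis, and Cdc20 (−0.42). The rise was Cdt1 (0.48). This count was sensitive to single arrays: it was 4 without wild-type fasted replicate 1, 5 without wild-type fed replicate 2 or replicate 3, and 12 without wild-type fasted replicate 2. As deposited, with no shift removed, 20 of the 28 fell and none rose, against 31.4% and 2.89% of all genes.

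Rrm1 read 30.1, 35.75 and 36.45 units in wild-type fasted arrays, against 79.7, 65.4 and 81.4 in wild-type fed arrays (standard error 0.12, adjusted p = 0.000701). Rrm2 read 61.05, 99.5 and 51.7 units in wild-type fasted arrays, against 143, 173 and 132 in wild-type fed arrays (standard error 0.19, adjusted p = 0.00901). The groups were apart in both genes, with replicate 2 the highest and replicate 3 the lowest of the fasted arrays in Rrm2. The second probe sets of Rrm2 (−0.54) and Rrm1 (−0.34) were not called.

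Mcm4 read 22.6, 25.1 and 26.6 units in wild-type fasted arrays, against 44.9, 54.5 and 45.5 in wild-type fed arrays (standard error 0.10, adjusted p = 0.000653). Ccna2 read 18.0, 26.3 and 13.7 units in wild-type fasted arrays, against 29.4, 46.1 and 40.9 in wild-type fed arrays (standard error 0.20, adjusted p = 0.0195). The Ccna2 groups did not overlap as deposited but did once the shift was removed, and its call was lost without wild-type fasted replicate 1 or 3 or without wild-type fed replicate 2 or 3 (lowest −0.98, highest −0.51 over single arrays left out). A second probe set of Ccna2 fell by 0.61. Cdt1 read 122, 103 and 136.5 units in wild-type fasted arrays, against 94.9, 126 and 98.5 in wild-type fed arrays. These intensities overlap, and as deposited the change of Cdt1 was 0.18 and was not called. The call of Cdt1 was also lost without wild-type fasted replicate 3 or wild-type fed replicate 1 or 3 (0.39 to 0.61), that of Racgap1 without wild-type fasted replicate 1 or wild-type fed replicate 2 or 3 (−0.65 to −0.39), and that of Ube2c without wild-type fasted replicate 1 (−0.82 to −0.49). Cdc20 kept its call only without wild-type fed replicate 1, and lost it without each of the other 11 arrays (−0.60 to −0.32), whereas its second tested probe set fell by 0.60 with all arrays (adjusted p = 0.00483).

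The markers gave smaller values in wild-type mice. Mki67 read 135, 188 and 170.4 units in wild-type fasted arrays, against 237.5, 249.6 and 265 in wild-type fed arrays, a change of −0.32 (standard error 0.15, adjusted p = 0.127). Top2a read 136, 202 and 147 units in wild-type fasted arrays, against 209.7, 279.7 and 263 in wild-type fed arrays, a change of −0.35 (standard error 0.15, adjusted p = 0.107). Neither was called relative to the shift, although both were as deposited (−0.62 and −0.64).

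Pcna read 853, 1015 and 922 units in wild-type fasted arrays, against 1337, 1430 and 1398 in wild-type fed arrays, a change of −0.28 (adjusted p = 0.0312) under the fold required. Cdk1 read 76.8, 111 and 89.9 units in wild-type fasted arrays, against 109, 148.5 and 158 in wild-type fed arrays, a change of −0.28 (adjusted p = 0.191). Mcm2 read 25.95, 26.9 and 20.05 units in wild-type fasted arrays, against 20.3, 23.6 and 27.65 in wild-type fed arrays, a change of 0.32 (adjusted p = 0.185). Wild-type fasted replicate 2 was the highest of its group in Mki67, Top2a, Pcna, Cdk1, Rrm2 and Ccna2, and the median deviation of the 28 genes from the wild-type fed mean was −0.50, −0.08 and −0.29 in wild-type fasted replicates 1 to 3, with the shift removed. The same median was −0.45, −0.34 and −0.43 in the PPARα-null fasted arrays, 0.12, 0.08 and 0.01 in the PPARα-null fed arrays and −0.11, 0.12 and 0.02 in the wild-type fed arrays. Every fasted array of the null line was thus below every fed array of either genotype, whereas wild-type fasted replicate 2 reached into the range of the fed arrays.

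**Figure D2:**
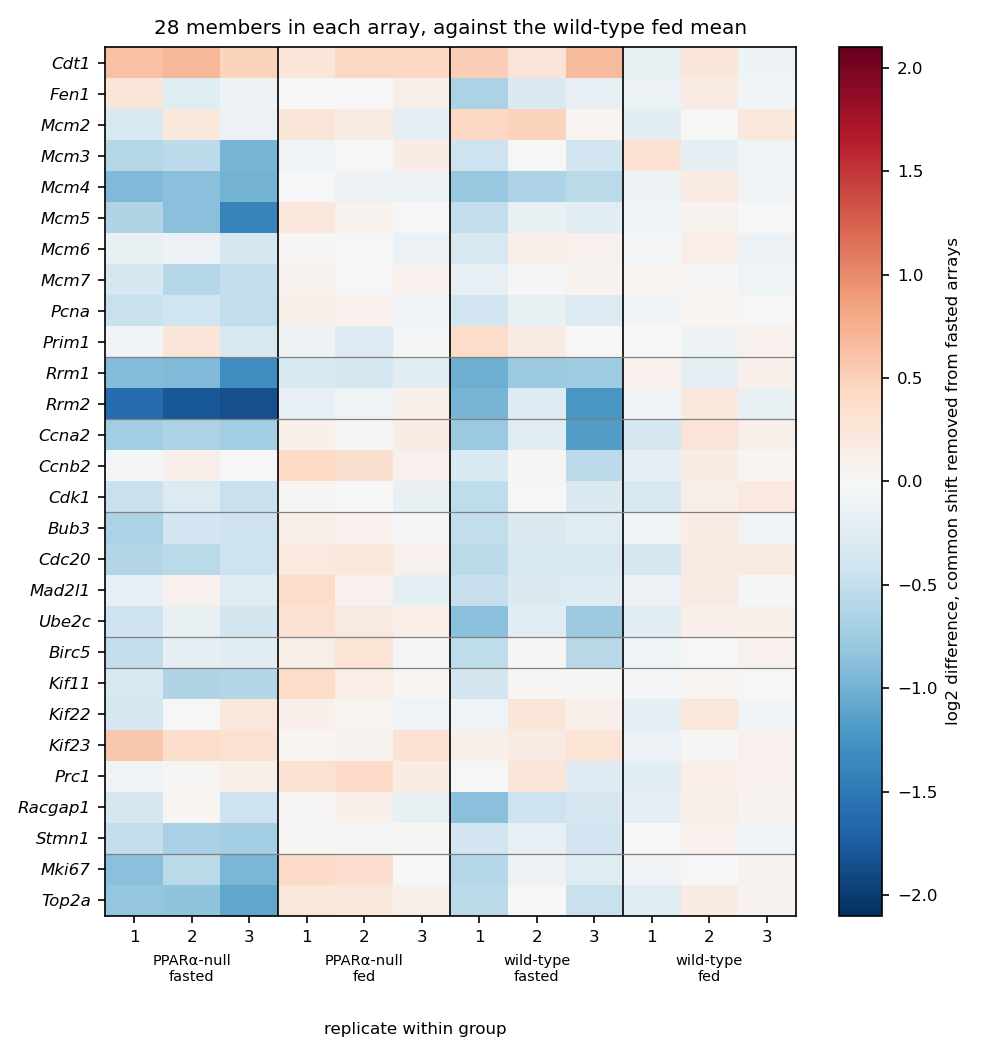
Log2 difference of each of the 28 tested genes (rows, by role) from the wild-type fed mean in each of the 12 arrays (columns), with the common shift removed from the fasted arrays; blue is lower and red is higher. The 3 PPARα-null fasted arrays are blue in most rows, darkest in Rrm2, while wild-type fasted replicate 2 is paler than replicates 1 and 3.

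**Figure D3:**
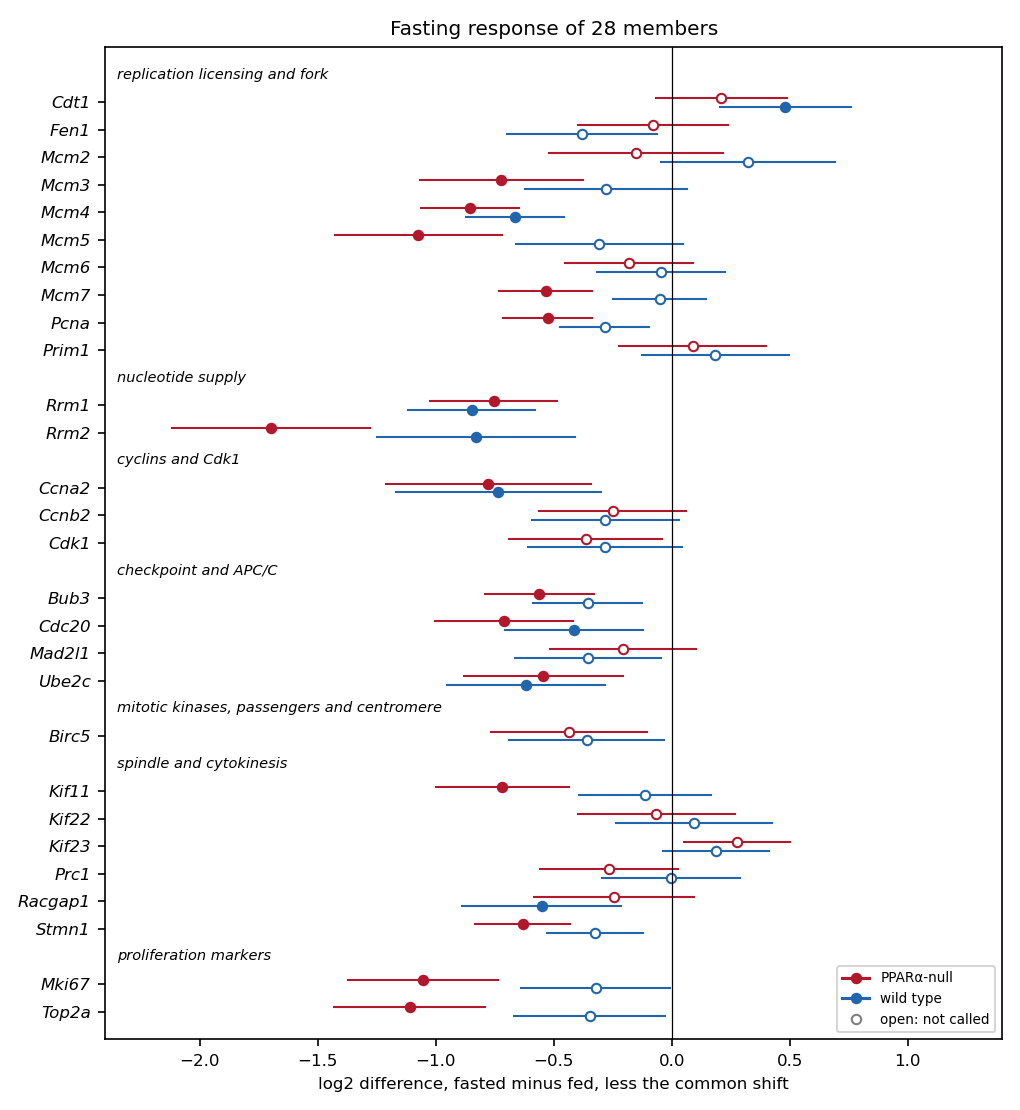
Fasting response of the 28 tested genes by role in PPARα-null and wild-type mice: log2 difference, fasted minus fed, relative to the common shift, with 95% confidence intervals of limma; filled points passed the call. In the null line 15 genes are filled, all to the left of 0, and in wild type 7 to the left and 1, Cdt1, to the right.

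In fed mice the genotypes did not differ in any called member. None of the 28 rose or fell in PPARα-null fed mice relative to wild-type fed mice, against 1.06% and 1.33% of all genes tested. The median difference was 0.07, and 0.05 over all genes, and 7 of the 28 lay below 0 against 36.6% of all genes. Before adjustment 2 genes had a limma p under 0.05, Cdt1 at 0.38 (adjusted p = 0.282) and Rrm1 at −0.30 (adjusted p = 0.396). Rrm1 was lower in each PPARα-null fed array than in each wild-type fed array. The differences of Mki67 (0.25, 95% interval −0.07 to 0.57) and Top2a (0.19, −0.13 to 0.52) left room for changes in both directions, as did those of Pcna (0.06), Mcm2 (0.07) and Cdk1 (−0.04).

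In fasted mice 6 of the 28 genes were lower in PPARα-null than in wild-type arrays, and none was higher. This is 21.4%, close to the 17.9% of all genes tested that were lower in this contrast (12.7% were higher), so the number is not a result about these genes. Of the 28, 18 lay below 0, against 52.1% of all genes. The genes lower in the PPARα-null fasted arrays were Rrm2 (−0.92, adjusted p = 0.00247), Mcm5 (−0.67, adjusted p = 0.00607), Top2a (−0.57, adjusted p = 0.00853), Mki67 (−0.48, adjusted p = 0.0198), Mcm7 (−0.43) and Kif11 (−0.42). The 3 PPARα-null fasted arrays were below the 3 wild-type fasted arrays in Rrm2, Mcm5, Top2a and Mcm7. In Mki67 the highest PPARα-null array (137) passed the lowest wild-type array (135), and in Kif11 18.0 passed 17.4.

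PPARα-null fasted replicates 1 and 3 had the highest pancreas sums, and the 3 wild-type fasted arrays lay above PPARα-null fasted replicate 2 as well. Without replicates 1 and 3 the PPARα-null fasted group was replicate 2 alone, assumed to vary like the arrays of the other groups, so that this fit has no replicate check in that group. The count was then 3, with Rrm2 at −0.95, Mcm5 at −0.58 and Mcm7 at −0.55, while Top2a (−0.50), Mki67 (−0.25) and Kif11 (−0.52) were no longer called. It was also 3 without wild-type fasted replicate 3 or without PPARα-null fasted replicate 3 alone. Left out singly, wild-type fasted replicate 2 or PPARα-null fasted replicate 3 ended the call of Top2a (−0.68 to −0.40), and either of these, wild-type fasted replicate 3 or PPARα-null fasted replicate 1 that of Mki67 (−0.62 to −0.38). The call of Mcm7 ended without wild-type fasted replicate 3 or PPARα-null fasted replicate 2 (−0.49 to −0.37) and that of Kif11 without any of 5 arrays. Rrm2 and Mcm5 kept theirs when single arrays were left out. All fasted arrays of Mcm5 were under the limit of 20 units, however. They read 14.36, 12.06 and 8.38 in PPARα-null and 15.55, 19.97 and 18.78 in wild-type mice. Mcm5 was thus tested only through its fed arrays. For Mcm7 the other 2 probe sets gave −0.12 and −0.00073 and were not called, so its difference rested on 1 of 3 probe sets. Those of Kif11 that were under the limit and not tested gave 0.13 and −0.20. Of the 10 genes above 0, none called, Fen1 had the highest value (0.35). Cdk1 (−0.12), Pcna (−0.19) and Mcm2 (−0.40, adjusted p = 0.0812) were not called.

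**Figure D4:**
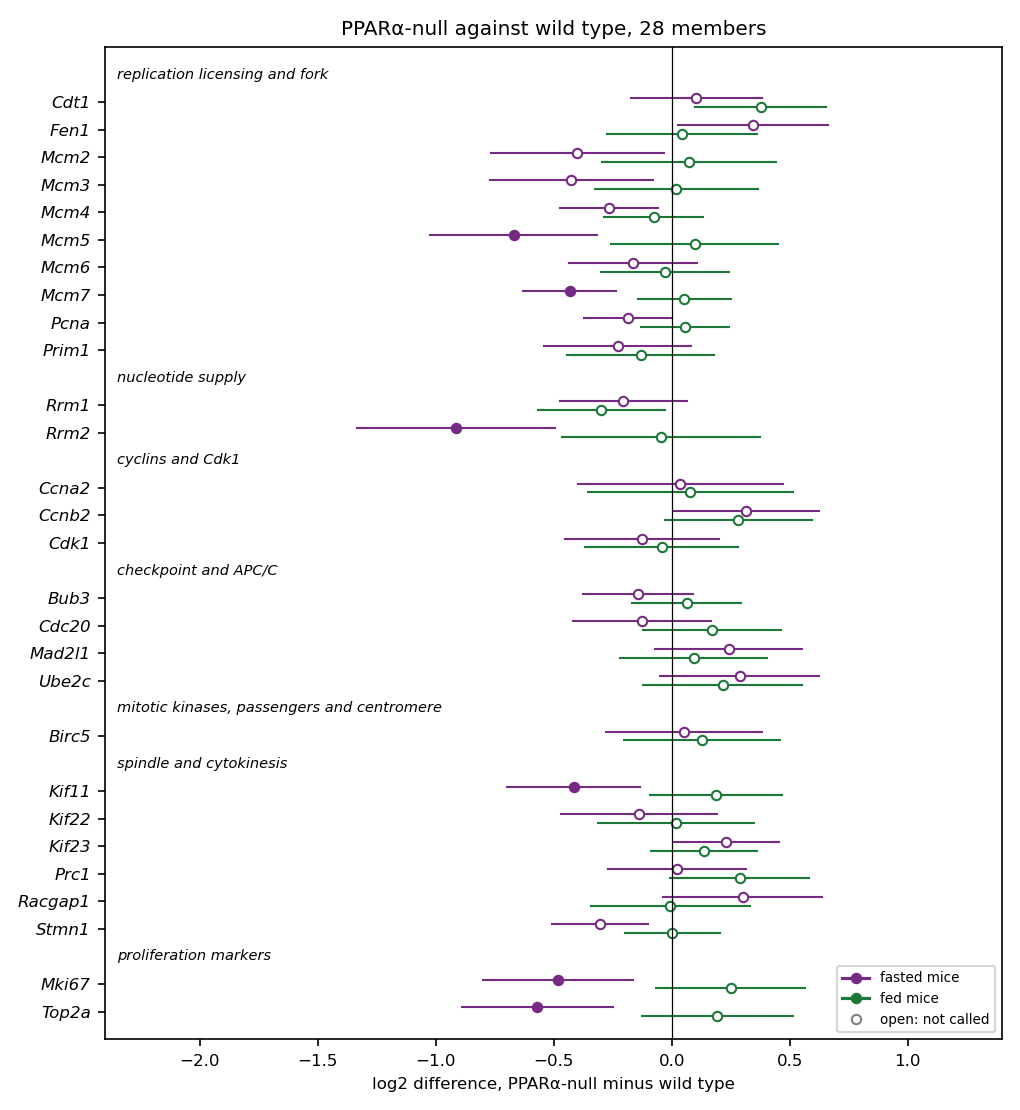
Difference between PPARα-null and wild-type arrays of the 28 tested genes in fasted and in fed mice (log2, PPARα-null minus wild type), with 95% confidence intervals of limma; filled points passed the call. The 6 filled points belong to fasted mice and lie left of 0, and no point of fed mice is filled.

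The difference between the fasting responses was tested directly, as the response of PPARα-null mice minus that of wild-type mice, the call needing a fold over 1.3 with an adjusted p under 0.05. It was called in 6 of the 28 genes, all more strongly lowered in the null line: Rrm2 (−0.87, adjusted p = 0.0368), Mcm5 (−0.77, adjusted p = 0.0307), Top2a (−0.76, adjusted p = 0.0196), Mki67 (−0.73, adjusted p = 0.0228), Kif11 (−0.60, adjusted p = 0.0312) and Mcm7 (−0.48, adjusted p = 0.0172). All genes tested were called downward in 15.8% and upward in 7.9% of cases, so that 21.4% of the 28 is again near the background, and 21 of the 28 lay below 0, against 57.2% of all genes. Mcm7 rested on 1 of 3 tested probe sets, since the other 2 gave 0.0066 and −0.14. With each array centred on its median 2 calls were left, Top2a and Mki67 (Mcm5, Rrm2, Mcm7 and Kif11 had adjusted p values of 0.0518, 0.0529, 0.0624 and 0.0671). With quantile normalization of all arrays Rrm2 (adjusted p = 0.0506) and Kif11 (adjusted p = 0.0619) lost the call, and with no limit on level so did these 2 and Mcm5. Without probe sets ending in _s_at or _x_at Rrm2 gave −0.45 and was not called. These contrasts share the fasted arrays, and the 6 genes are the same ones that were lower in fasted null arrays.

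For 9 of the 15 genes that fell in PPARα-null mice the difference from the wild-type response was therefore not called. Among them Rrm1 (0.09), Ccna2 (−0.04) and Ube2c (0.07) had values near 0. Mcm3 (−0.44), Stmn1 (−0.31), Cdc20 (−0.30), Pcna (−0.24), Bub3 (−0.21) and Mcm4 (−0.19) lay further below 0. The count was 3 without PPARα-null fasted replicate 3, without replicate 1 or 2 of the PPARα-null fed arrays, without wild-type fasted replicate 2 or without replicate 1 or 3 of the wild-type fed arrays, and 2 (Mcm5 and Mcm7) with replicate 2 as the only PPARα-null fasted array. Each of the 6 differences stayed negative in these fits.

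Genes around this core were read from lists of related genes. Of 23 other replication and repair genes tested, 9 fell and 2 rose upon fasting in PPARα-null mice, and 4 fell and none rose in wild-type mice. These are 39.1% and 8.7% in PPARα-null mice, against 25.1% and 18.5% of all genes, and 17.4% and 0% in wild-type mice, against 8.04% and 10.1% of all genes. Gmnn, geminin, which blocks Cdt1, fell by 1.06 in PPARα-null and by 0.40 in wild-type mice, and Orc4, of the origin recognition complex, by 0.80 and 0.84. Slbp, which binds histone mRNA in S phase, fell by 1.14 in PPARα-null mice and was not called in wild-type mice, with a difference between the responses of −0.93 (adjusted p = 0.0112). Of 26 other mitosis genes, 12 fell and 1 rose in PPARα-null mice, and 6 fell and none rose in wild-type mice. Falls made up 46.2% in the null line, against 25.1% of all genes, and 23.1% in wild type, against 8.04%. Rises made up 3.85% in the null line, against 18.5% of all genes, and 0% in wild type, against 10.1%. The largest falls in the null line were Cdca7 (−1.36), Cks1b (−1.34), a Cdk-binding subunit, and Cdca5 (−1.34), sororin of the cohesin complex. In wild-type mice Cdca5 fell by 0.95 and Pttg1, securin, by 0.62.

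The G1 regulators come next. Of 14 G1 cyclins, Cdks, E2F and pocket protein genes tested, 8 fell and none rose upon fasting in PPARα-null mice. In wild-type mice 2 fell and 2 rose. Falls were 57.1% in PPARα-null mice, against 25.1% of all genes, and 14.3% in wild-type mice, against 8.04%. Rises were 0% in PPARα-null mice, against 18.5%, and 14.3% in wild-type mice, against 10.1%. The difference between the responses was called downward in 7, which is 50%, against 15.8% of all genes. Rbl1, the pocket protein p107, read 18.0, 21.0 and 16.6 units in PPARα-null fasted arrays and 54.0, 48.4 and 56.0 in PPARα-null fed arrays, against 41.3, 48.0 and 54.1 in wild-type fasted arrays and 48.1, 47.1 and 51.2 in wild-type fed arrays. Only the PPARα-null fasted arrays stood low, and the difference between the responses was −1.48 (adjusted p = 6.9e-05). Myc, a driver of growth and cell cycle entry, gave −1.50 (adjusted p = 0.00141), with 8.96 to 10.8 units in PPARα-null fasted and 20.7 to 29.4 in PPARα-null fed arrays, against 26.7 to 33.7 in wild-type fasted and 18.6 to 31.0 in wild-type fed arrays. Cyclin D2 (Ccnd2) fell by 1.17 in PPARα-null mice, with a difference of −0.86 between the responses.

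Of 11 cell cycle inhibitor genes tested, 4 fell and 2 rose in PPARα-null mice, and 2 fell and none rose in wild-type mice. In the null line the falls were 36.4% and the rises 18.2%, against 25.1% and 18.5% of all genes, so that the number of rises was that of the background, and in wild type the falls were 18.2%, against 8.04%. Cdkn1a, the Cdk inhibitor p21, read 1863, 1627 and 1632 units in PPARα-null fasted arrays and 803, 1055 and 871 in PPARα-null fed arrays, against 716, 729 and 578 in wild-type fasted arrays and 645, 913 and 903 in wild-type fed arrays. The 3 PPARα-null fasted arrays were higher than all others. Cdkn1a rose by 1.21 upon fasting in the null line (adjusted p = 2.2e-05), and the responses differed by 1.19 (adjusted p = 0.00174). Gadd45b rose by 0.99 in PPARα-null mice, and Gadd45a, a growth arrest gene, fell by 0.64 in PPARα-null and by 0.97 in wild-type mice.

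Markers of several cell types were read in the same arrays. Of 8 crypt base and progenitor genes tested, 5 fell and 1 rose upon fasting in PPARα-null mice, and none was called in wild-type mice; the list shares Cdca7 with the mitosis genes. The falls in the null line were 62.5% of the list, against 25.1% of all genes, and the rises 12.5%, against 18.5%. In wild-type mice 8.04% of all genes fell and 10.1% rose. Its summed intensity was 953 to 1051 units in PPARα-null fasted and 1239 to 1318 in PPARα-null fed arrays, against 1017 to 1101 in wild-type fasted and 1151 to 1232 in wild-type fed arrays. The changes of the 8 genes in the null line ran from −1.36 to 0.79, with 2 of them above 0. The Wnt target Axin2, named after its values were seen, read 9.48 to 11.8 units in PPARα-null fasted arrays, under 20 units. It read 30.2 to 33.2 in PPARα-null fed, 22.7 to 24.9 in wild-type fasted and 25.8 to 32.9 in wild-type fed arrays. Axin2 is a single gene of this list, in which 1 other gene rose in the null line, and it does not stand for the list. Of 13 villus enterocyte genes, 4 rose and 1 fell in PPARα-null and 2 rose in wild-type mice, rises of 30.8% and 15.4%, against 18.5% and 10.1% of all genes.

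Of 7 T and intraepithelial lymphocyte genes tested, 2 fell upon fasting in each genotype, and 6 were lower in fasted and 3 in fed null mice than in wild type. The falls upon fasting were 28.6% in each genotype, against 25.1% of all genes in PPARα-null and 8.04% in wild-type mice, whereas 85.7% were lower in fasted and 42.9% in fed null mice, against 17.9% and 1.33% of all genes. The count upon fasting depended on the rule. With an adjusted p of limma under 0.05 and the same fold, 6 of the 7 fell in PPARα-null and 2 in wild-type mice. By that rule 1504 and 472 of the 5649 genes tested fell. Their summed intensity was 631 to 728 units in PPARα-null fasted and 1184 to 1598 in PPARα-null fed arrays, against 1356 to 1557 in wild-type fasted and 1975 to 2262 in wild-type fed arrays. Of 6 B cell and germinal centre genes, 3 fell (50%, against 25.1% of all genes) and 1 rose (16.7%, against 18.5%) in PPARα-null mice. In wild-type mice 1 fell (16.7%, against 8.04%) and 2 rose (33.3%, against 10.1%). Their sum was 209 to 268 units in PPARα-null fasted and 375 to 421 in PPARα-null fed arrays, against 264 to 293 in wild-type fasted and 395 to 458 in wild-type fed arrays. Of 9 smooth muscle genes, 1 fell in PPARα-null (11.1%, against 25.1% of all genes) and 6 in wild-type mice (66.7%, against 8.04%). The part of these cell types in the changes of the 28 genes was not tested.

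The 22 genes at or under the limit of 20 units had group means between 4.29 and 25.8 units. With no limit on level, 50 genes were read, 20 were called upon fasting in PPARα-null and 8 in wild-type mice, and the medians were −0.27 and −0.11. The calls added in PPARα-null mice were falls of Bub1b (−0.68), Cdc6 (−0.56), Lig1 (−0.49) and Tpx2 (−0.39) and a rise of Cenpe (0.52). Group means of Cenpe were only 4.29 to 4.985 units. The share of all genes called without the limit is not given here. Closest to the limit were Cenpa, the centromeric histone, with group means of 17.0 units in PPARα-null fasted and 25.8 in PPARα-null fed arrays, against 15.2 in wild-type fasted and 23.5 in wild-type fed arrays, Aurka and Lig1. Just inside stood Mcm5, with a geometric mean of 20.1 units over the 12 arrays, Kif23 with 20.2 and Prim1 with 20.4. Of the called genes, Mcm5 (11.6 units in PPARα-null and 18.1 in wild-type fasted arrays) and Ccna2 (19.1 and 19.3) had both fasted means under 20. These genes thus entered the tests through their fed arrays. The PPARα-null fasted mean of Kif11 (15.9) and the wild-type fasted mean of Racgap1 (16.8) were under 20 as well. The counts of falls and of differences given above include these genes.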

How the data were processed

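Small-intestinal RNA of 12 mice was measured on Affymetrix MOE430A arrays. The deposited values are linear intensities per probe set, which the authors made with GCRMA (version 2.20 in the submitters' processing notes), which corrects the background with probe sequence in view, applies quantile normalization and summarises the probes of a set. Genes were named through GEO's platform table: 20393 probe sets had 1 symbol, 691 several and 1606 none. Log2 intensities were fitted with limma 3.58.1 in R 4.3.3 (lmFit, eBayes) over all 12 arrays, with 4 group means. Probe sets with a mean over 20 were tested (9053, in 5649 genes), each gene by its highest probe set. The fasting shift of both genotypes (−0.30, or −0.31 in PPARα-null and −0.27 in wild-type mice) was removed from the fasting contrasts. The fit was tested on simulated data.

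The genes and lists were chosen with earlier results of these data known. Values per array are given for up to 4 called genes with the largest rises and falls of each contrast, and always for Mki67, Top2a, Pcna, Mcm2 and Cdk1. Of other pathway lists up to 3 of each are named per contrast. Kif11 and Mcm7, the uncalled members and Axin2 and other genes outside this rule were named after their values were seen. Alternatives were other scalings, level limits, call rules, probe set choices, variance models, the replicate number as a block and each array left out. The labels do not say that arrays of 1 replicate number are related, and p values measure the spread between arrays called biological replicates. Promoters are RefSeq windows of GRCm38.p6.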

Additional observations from a re-analysis of the deposited data

Results flagged for a closer look

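The fasting responses differed between the genotypes, by the direct test of that difference with limma, in 6 of the 28 genes, each lowered more in PPARα-null mice. This is 21.4%, near the 15.8% of all genes called downward in this contrast. The differences, PPARα-null minus wild-type response on the log2 scale, were −0.87 for Rrm2, −0.77 for Mcm5, −0.76 for Top2a, −0.73 for Mki67, −0.60 for Kif11 and −0.48 for Mcm7. The summed intensity of the lymphocyte genes was lowest in the PPARα-null fasted arrays (631 to 728 units, against 1356 to 1557 in wild-type fasted arrays), and that of the crypt base genes was 953 to 1051 units in PPARα-null fasted and 1017 to 1101 units in wild-type fasted arrays; their part in these differences was not tested. Top2a and Mcm7 kept the call whichever single array was left out, although the other 2 tested probe sets of Mcm7 gave 0.0066 and −0.14 and its call was lost with each array centred on its median (−0.39, adjusted p = 0.0624), as were those of Rrm2, Mcm5 and Kif11, while Rrm2, Mcm5, Kif11 and Mki67 lost it without 5 to 7 of the 12 arrays in turn. Groups of 3 arrays are too small to look for single outlying arrays.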

How the results depend on the processing

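Without the removal of the common shift the falls upon fasting grew in number, to 22 in PPARα-null and 20 in wild-type mice. In that fit 44.5% and 31.4% of all genes fell. The medians of the 28 genes were then −0.83 in PPARα-null and −0.61 in wild-type mice. With each array centred on its median the responses differed in 2 genes. With no limit on level the medians upon fasting were −0.27 in PPARα-null and −0.11 in wild-type mice, 1 gene differed between genotypes in fed mice and 3 responses differed. With a limit of 100 units, which left 12 of the genes, 7 were called upon fasting in PPARα-null mice, all falls. In wild-type mice 2 were called, a fall of Ube2c and a rise of Cdt1. Between fasted groups 3 were called and in the difference of responses 3, in both cases Mcm7, Mki67 and Top2a, with negative values. Without PPARα-null fasted replicates 1 and 3, an alternative chosen after seeing the data, that group is 1 array, assumed to vary like those of the other groups. In this fit 3 were called between fasted groups and 2 responses differed.

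Leaving out 1 array at a time gave 14 to 16 calls upon fasting in PPARα-null and 4 to 12 in wild-type mice, 3 to 6 for PPARα loss in fasted mice, 0 to 2 in fed mice (2 without wild-type fed replicate 2) and 3 to 6 for the difference of responses, with medians of −0.55 to −0.48, −0.41 to −0.23, −0.24 to −0.10, 0.02 to 0.13 and −0.28 to −0.13. Replicate numbers did not pair the arrays (deviations of same-numbered arrays correlated at −0.21 to 0.26). With the replicate block the calls were 16 and 8 upon fasting in PPARα-null and wild-type mice, 5 and 0 for PPARα loss in fasted and fed mice and 5 for the difference of responses. No main count but these moved by over 1.5 times. Counts of the other alternative fits, here and above, are given without the share of all genes, which differs between fits. They show only how the main counts move, and by themselves are not a result about these genes. The shares of the main counts are given above.

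Named genes that reversed were Cdk1 and Mcm2, uncalled in those contrasts, and Mcm7. The difference of responses of Cdk1 (−0.08) became 0.018 with quantile normalization, 0.0094 with centring, 0.032 without PPARα-null fasted replicates 1 and 3, 0.057 without wild-type fasted replicate 2 and 0.083 without wild-type fed replicate 1. That of Mcm7, called at −0.48, became 0.0066 once probe sets ending in _s_at or _x_at were left out. Mcm2 upon fasting in the null line became 0.14 without those replicates. Leaving out single arrays turned PPARα loss in fasted mice for Cdk1 (lowest −0.25, highest 0.015), and in fed mice for Cdk1 (−0.21 to 0.064) and Mcm2 (−0.036 to 0.21). The causes were not tested. With 3 arrays a group precision is limited, and Mcm5 and Kif11 lie close to the limit of 20 units.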
